A study of Homo sapiens with 3 samples.

Results

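The genes described here are 10 genes of the integrated stress response, ATF4 itself and 9 genes commonly counted as its targets: DDIT3, TRIB3, ASNS, CHAC1, SESN2, PSAT1, PHGDH, VLDLR and DDIT4. They were found by symbol among the 36601 genes of the deposited tables, and each matched 1 gene. OVCAR3 cells, an established line of high-grade serous ovarian carcinoma, were treated for 48 hours and profiled by droplet single-cell RNA sequencing, in which each captured mRNA molecule carries a unique molecular identifier (UMI). The DMSO library came from cells given vehicle, the RAC1i library from cells given 50 μM of the RAC1 inhibitor NSC23766, and the Combo library from cells given 50 μM RAC1i together with 5 μM of the EZH2 inhibitor GSK126. Cells given EZH2i alone were not analysed here, so the share of GSK126 in any Combo value cannot be told apart from its effect together with RAC1i. The question asked was how transcription changed in these cells when RAC1 was inhibited, alone or with EZH2.

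The integrated stress response starts when a stress-sensing kinase phosphorylates the translation initiation factor eIF2. Most translation slows, while the ATF4 mRNA, whose upstream reading frames normally hold ribosomes back, is translated more. The ATF4 protein then pairs with C/EBP and other basic leucine zipper proteins on composite DNA elements and drives genes for amino acid supply, redox balance, mTORC1 control and, if stress lasts, cell death. ATF4 protein is set mainly by translation, so the mRNA counts below do not measure ATF4 activity.

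After filtering, the DMSO, RAC1i and Combo libraries held 7531, 10215 and 8239 cells with 199063947, 234969742 and 212792113 UMIs. Median UMIs per cell lay between 20989 and 26750, and mitochondrial genes took a median of 5.60% of a cell's UMIs in DMSO, 1.66% in RAC1i and 1.58% in Combo. Each condition was 1 library with no replicate, so no difference was tested, and differences between libraries cannot be told apart from differences between conditions. Levels are given as CPM, a gene's share of the library's UMIs scaled to a total of 1000000. The 95% intervals below (exact Poisson for a level, exact conditional for a ratio of levels, Clopper-Pearson for a share of cells) cover counting error only. Those of co-detection are exact Poisson for the number of cells with both genes. Pairs of libraries shared 15 to 23 kept barcodes. All 8 serous carcinoma markers were present in each library (PAX8 at 355, 54.3 and 47.8 CPM in DMSO, RAC1i and Combo). The lowest was WT1, at 32.0, 10.4 and 7.87 CPM. In each treated library 5 of the 8 were at or past 2-fold lower than in DMSO, beside 29.4% of all genes in RAC1i and 27.9% in Combo. The leukocyte marker PTPRC reached at most 0.0213 CPM and the fibroblast marker COL1A1 5.51 to 5.69 CPM.

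The composite element that ATF4 binds with C/EBP proteins has the core TGATGNAAN. This core was searched on both strands in the 1000 bases before and 50 bases after each RefSeq start site, read from GRCh38. It occurred near 8 of the 10 genes, against 4258 of 27305 genes (15.6%) in the same windows. ATF4 and PSAT1 had no match, which says only that these letters were not in this window. In the shorter 300-base RefSeq promoter windows (GRCh38.p14) the core was found for ASNS and CHAC1, and for 4.45% of all genes. The search fixes every letter of the core but N, so all matches carry nearly the same letters, whichever way a gene moved. The 10 genes were chosen as ATF4 and its commonly counted targets, and the longer window after seeing the data. The count of 8 is therefore no test. Capitals mark the core, and each sequence is written on its gene's strand, so a core on the other strand appears as its reverse complement.

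DDIT3 (chr12:57520802-57520831, minus strand): gttgccaaacATTGCATCAtccccgccccc
TRIB3 (chr20:380881-380910, plus strand, the first of 3 identical copies): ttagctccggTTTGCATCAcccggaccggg
ASNS (chr7:97872457-97872486, minus strand): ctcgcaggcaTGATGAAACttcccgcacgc
CHAC1 (chr15:40953251-40953280, plus strand): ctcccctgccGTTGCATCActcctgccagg
SESN2 (chr1:28259211-28259240, plus strand): gtgaagtcccTTTTCATCAcgcaaccctaa
PHGDH (chr1:119710969-119710998, plus strand): cataattctcATTGCATCActaatttgaaa
VLDLR (chr9:2621338-2621367, plus strand): agcaacgataGTTGCATCAgcgctaactgc
DDIT4 (chr10:72272968-72272997, plus strand): tcctcggtccTGATGCAACcgtctggatct

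DDIT3 and PHGDH hold the same 9 letters, TGATGCAAT, and CHAC1, VLDLR and DDIT4 share TGATGCAAC. The 3 copies at TRIB3 begin at chr20:380881, chr20:380914 and chr20:380947 when the flanking bases are counted. By the GENCODE annotation the cores at SESN2 and DDIT4 lie upstream of the gene, and those at DDIT3, PHGDH and VLDLR lie within the gene but in no exon. The TRIB3 cores lie in an exon of the canonical transcript, and the ASNS and CHAC1 cores shown in an exon of another transcript. ASNS had a further core, TGATGTAAT, at chr7:97873286-97873294, upstream of the gene and not shown above. A match of letters is a description and not a bound site.

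Against DMSO, ATF4 and DDIT3 were at or past 2-fold higher and CHAC1, PSAT1 and PHGDH at or past 2-fold lower in both treated libraries. Of the 10 genes, 2 were at or past 2-fold higher in RAC1i over DMSO (ATF4 and DDIT3), where 16.2% of all 14509 genes reaching 1 CPM in either of the 2 libraries were. At or past 2-fold lower were 5 (ASNS, CHAC1, PSAT1, PHGDH and DDIT4), where 29.4% of all genes were. In Combo over DMSO the same 2 genes were higher, against 14.7% of 14441 genes, and 3 were lower (CHAC1, PSAT1 and PHGDH), against 27.9%. Both comparisons use the same DMSO library. In Combo over RAC1i none of the 10 genes passed 2-fold in either direction, where 0.0596% of 13416 genes were higher and 0.112% lower. The median log2 ratio over the 10 genes was -0.86 in RAC1i over DMSO and -0.62 in Combo over DMSO, beside -0.29 and -0.27 over all genes. Nearest to the 2-fold limit in RAC1i over DMSO lay ASNS inside it, at a log2 ratio of -1.19, and TRIB3 outside it, at -0.52. In Combo over DMSO, DDIT4 at -0.98 and ASNS at -0.88 lay just outside.

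**Figure D1:**
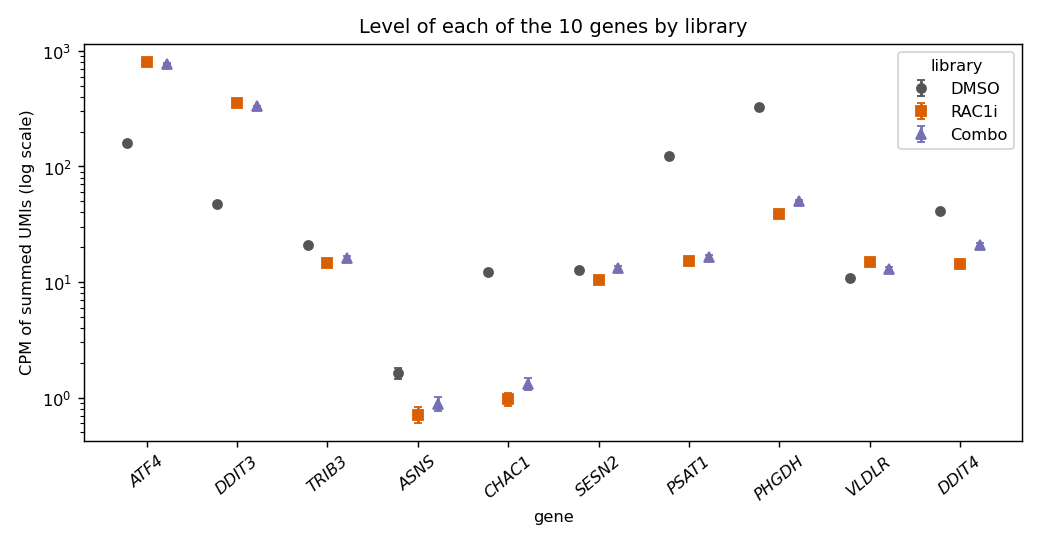
Level of each of the 10 genes in the DMSO, RAC1i and Combo libraries, in CPM of UMIs summed over kept cells on a log axis. Points are single libraries and bars are 95% Poisson intervals. ATF4 and DDIT3 sit higher in both treated libraries, and CHAC1, PSAT1 and PHGDH sit lower. Heights are compared within a gene, not between genes.

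ATF4, the central factor of the response (chromosome 22, 39519695 to 39522683, plus strand), stood at 160 CPM in DMSO, 797 in RAC1i and 775 in Combo. Its log2 ratio was 2.32 (95% interval 2.30 to 2.34) in RAC1i over DMSO and 2.28 (2.26 to 2.30) in Combo over DMSO. Combo lay just under RAC1i, at -0.04 (-0.05 to -0.03), a gap small beside the step from DMSO, and one that turned to 0.06 when only cells with 15000 to 30000 UMIs were used. DDIT3, which encodes the stress factor CHOP (chromosome 12, 57516588 to 57521737, minus strand), stood at 47.0, 351 and 330 CPM in the same order. Its log2 ratio of 2.90 (2.87 to 2.93) in RAC1i over DMSO was the largest of the 10 genes, and 95.8% of all genes had a lower one. In Combo over DMSO it was 2.81 (2.78 to 2.84). MARS1 and MBD6 overlap DDIT3 on the opposite strand. On the same strand lies AC022506.1, a protein-coding gene with 0 UMIs in each library. It shares 105 exonic bases with DDIT3, and 0 of the last 500.

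TRIB3 encodes a pseudokinase that CHOP and ATF4 induce and that dampens both AKT signalling and ATF4 itself. Its level was 20.9 CPM in DMSO, 14.5 in RAC1i and 16.1 in Combo. Unlike its 2 upstream factors it was not higher in either treated library: the log2 ratio was -0.52 (-0.59 to -0.46) in RAC1i over DMSO and -0.37 (-0.44 to -0.31) in Combo over DMSO. Both lie close to the median of all genes when all kept cells are used. In cells with 2% to 4% mitochondrial UMIs, a window chosen after seeing the data, they were -0.86 and -0.89. The medians of all genes there were -0.16 and -0.17.

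PHGDH and PSAT1, which encode enzymes of serine synthesis, were lower in both treated libraries. PHGDH, the first enzyme of serine synthesis, went from 325 CPM in DMSO to 38.9 in RAC1i and 50.5 in Combo. The log2 ratios were -3.06 (-3.09 to -3.03) and -2.68 (-2.71 to -2.66) against DMSO. PSAT1, the next enzyme of the same pathway, stood at 123, 15.3 and 16.5 CPM. Its log2 ratios of -3.003 (-3.05 to -2.95) and -2.90 (-2.95 to -2.84) lay near those of PHGDH against DMSO.

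ASNS, which makes asparagine, was the least counted of the 10 genes, with 323, 167 and 188 UMIs in DMSO, RAC1i and Combo, or 1.62, 0.711 and 0.883 CPM. The log2 ratio was -1.19 (-1.47 to -0.92) in RAC1i over DMSO, but -0.92 as a mean over cells of CPM, which ends the 2-fold call, and above 0 in some bins of depth and mitochondrial share. These counts are uncertain, because 489 of the last 500 exonic bases of ASNS are also exonic in AC079781.5, a long noncoding RNA gene annotated on the same strand. AC079781.5 itself had 4.51, 3.80 and 4.32 CPM. Reads that fit both genes are by default not counted for either, so the ASNS values may be too low in all 3 libraries, by an amount that was not measured.

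CHAC1 encodes an enzyme that degrades glutathione and is among the most responsive ATF4 and CHOP targets known. It had 12.3 CPM in DMSO but 0.970 in RAC1i and 1.31 in Combo. The log2 ratio of -3.66 (-3.86 to -3.46) in RAC1i over DMSO was the lowest of the 10 genes, and 0.813% of all genes had a lower one. As a mean over cells of CPM it was -2.89, above PSAT1 at -3.20 and PHGDH at -3.18. In Combo over DMSO it was -3.22 (-3.41 to -3.04).

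SESN2 and DDIT4 (also called REDD1) encode stress-induced brakes on mTORC1. SESN2 stood at 12.8 CPM in DMSO, 10.4 in RAC1i and 13.2 in Combo. Its log2 ratio was -0.30 (-0.39 to -0.22) in RAC1i over DMSO, near the median of all genes, and 0.04 (-0.04 to 0.12) in Combo over DMSO, an interval that includes 0. DDIT4 stood at 41.3, 14.2 and 21.0 CPM. Its log2 ratio was -1.54 (-1.59 to -1.48) in RAC1i over DMSO and -0.98 (-1.03 to -0.92) in Combo over DMSO. As a mean over cells of CPM the first was -0.89, which ends the 2-fold call, and it was 0.55 among cells under 5000 UMIs. VLDLR, a lipoprotein receptor, was the only other gene above 0 in both comparisons, at 10.9, 15.0 and 13.0 CPM and log2 ratios of 0.47 (0.39 to 0.54) and 0.25 (0.17 to 0.33). A noncoding gene, VLDLR-AS1, overlaps VLDLR on the opposite strand.

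**Figure D2:**
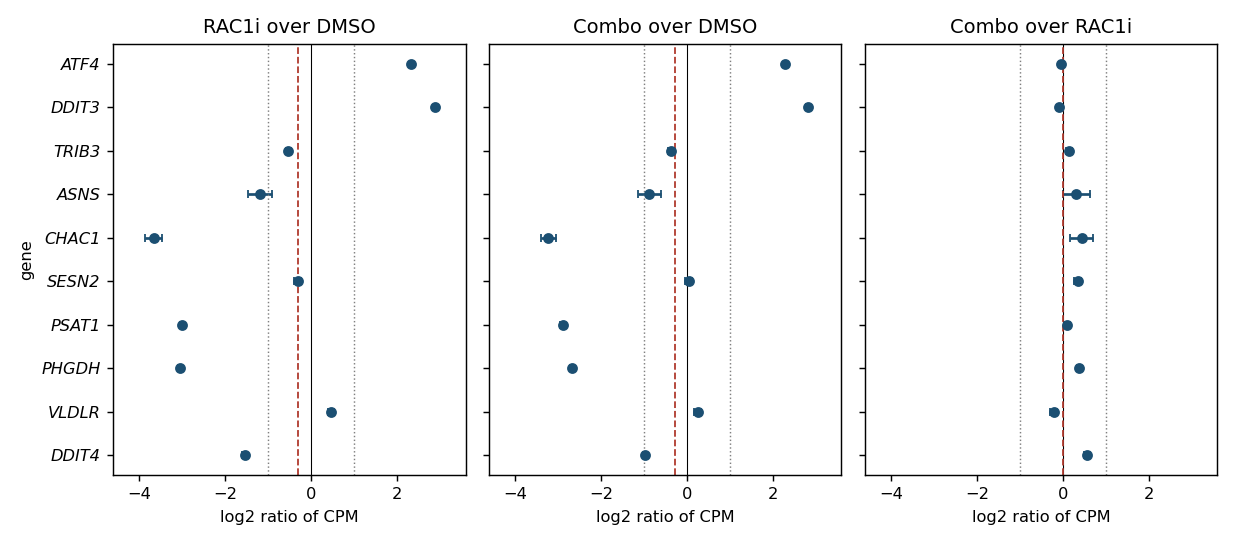
Log2 ratio of CPM for each of the 10 genes in 3 pairs of libraries, with 95% counting intervals. The dashed line is the median of all genes and the dotted lines mark 2-fold. In the first 2 panels ATF4 and DDIT3 lie right of the 2-fold line and CHAC1, PSAT1 and PHGDH left of it, and in the third panel every gene lies between the 2-fold lines.

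Adding EZH2i to RAC1i went with small differences, 7 of them upward. DDIT4 showed the largest, a log2 ratio of 0.56 (0.50 to 0.63) in Combo over RAC1i, and 99.0% of all genes had a lower one. CHAC1 followed at 0.43 (0.18 to 0.69), PHGDH at 0.38 (0.34 to 0.42), SESN2 at 0.35 (0.27 to 0.43) and ASNS at 0.31 (0.01 to 0.62). The ratios of DDIT4, CHAC1, PHGDH and SESN2 lay above at least 94.0% of the genes reaching 1 CPM. The comparison shares the RAC1i library with RAC1i over DMSO, so a gene low in that library would be lower in one and higher in the other. TRIB3 (0.15) and PSAT1 (0.11) were nearer 0, and DDIT3 (-0.09) and VLDLR (-0.22) were below it. DDIT3 turned to 0.08 in cells with 15000 to 30000 UMIs. ASNS was under 1 CPM in both of these libraries, so it was not among the genes ranked. The median over the 10 genes was 0.23, beside 0.01 over all genes.

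In cells of like depth or like mitochondrial share, ATF4, DDIT3, TRIB3, CHAC1, PSAT1 and PHGDH kept their direction against DMSO in every bin for both treated libraries. Cells were split at 5000, 10000, 20000 and 30000 UMIs, and the log2 ratio of ATF4 in RAC1i over DMSO lay between 2.23 and 2.49 in every bin. DDIT3 lay between 2.72 and 4.12, PHGDH between -3.77 and -3.02, and PSAT1 between -4.73 and -2.91. CHAC1 spanned more, from -0.94 in the shallowest cells to -3.91 in the deepest, and TRIB3 lay between -1.37 and -0.37. Split by mitochondrial share, which was higher in DMSO, ATF4 lay between 1.68 and 2.59 and DDIT3 between 2.65 and 3.76. TRIB3 lay between -1.33 and -0.45 there, and past 2-fold lower in the bins of 4% to 8% and 8% to 20%. DDIT4 did not keep its direction: from the value above in the shallowest cells it went to -2.07 among cells with 30000 or more, and it was 0.34 among cells with 8% to 20% mitochondrial UMIs. SESN2 went from 0.89 in the shallowest cells to -0.36 in the deepest, and ASNS from 1.69, which rests on 4 RAC1i UMIs and 1 DMSO UMI, to -1.28. VLDLR stayed above 0 in RAC1i over DMSO, between 0.30 and 2.03 by depth and between 0.26 and 2.54 by mitochondrial share, but reached -0.01 in 1 depth bin of Combo over DMSO. In cells with under 1% mitochondrial UMIs SESN2 stood at 1.07 and VLDLR at 2.54, both past 2-fold higher. These values rest on 53 SESN2 and 25 VLDLR UMIs in 1170 DMSO cells, beside 836 and 1098 in 2479 RAC1i cells. Depth was not matched within the mitochondrial bins. The part of depth and of mitochondrial share in the values of these 4 genes was not tested further.

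For shares of cells, 5000 UMIs were drawn at random from every cell that had as many: 6725 DMSO, 9200 RAC1i and 7354 Combo cells. ATF4 was detected in 52.9% (51.7 to 54.1) of DMSO cells, 92.5% (92.0 to 93.1) of RAC1i cells and 91.6% (90.9 to 92.2) of Combo cells. Without thinning the shares were 86.4%, 98.1% and 98.0%. DDIT3 was detected in 19.96% (19.0 to 20.9) of DMSO, 73.2% (72.3 to 74.1) of RAC1i and 71.7% (70.6 to 72.7) of Combo cells, and in 53.9%, 93.4% and 92.9% without thinning. Both genes were thus found in most treated cells rather than in a small subset.

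The serine synthesis genes went the other way. PHGDH was detected in 75.5% (74.5 to 76.5), 17.2% (16.4 to 17.9) and 21.9% (20.9 to 22.8) of thinned DMSO, RAC1i and Combo cells, and PSAT1 in 42.2% (41.0 to 43.4), 6.77% (6.27 to 7.30) and 7.36% (6.77 to 7.98). Unthinned shares were 93.8%, 48.7% and 57.2% for PHGDH and 79.7%, 25.1% and 29.4% for PSAT1. CHAC1 was detected in 5.03% (4.52 to 5.58), 0.446% (0.320 to 0.604) and 0.816% (0.623 to 1.05) of thinned cells, and DDIT4 in 16.0%, 7.45% and 9.80%. The remaining genes stayed under 10% in each library: TRIB3 at 9.06%, 6.28% and 7.26%, SESN2 at 5.40%, 4.86% and 6.05%, VLDLR at 4.95%, 6.97% and 5.93%, and ASNS at 0.803%, 0.348% and 0.490%. The share that free RNA alone would give was not measured, since these cultures hold 1 line and no cells known to lack the genes.

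**Figure D3:**
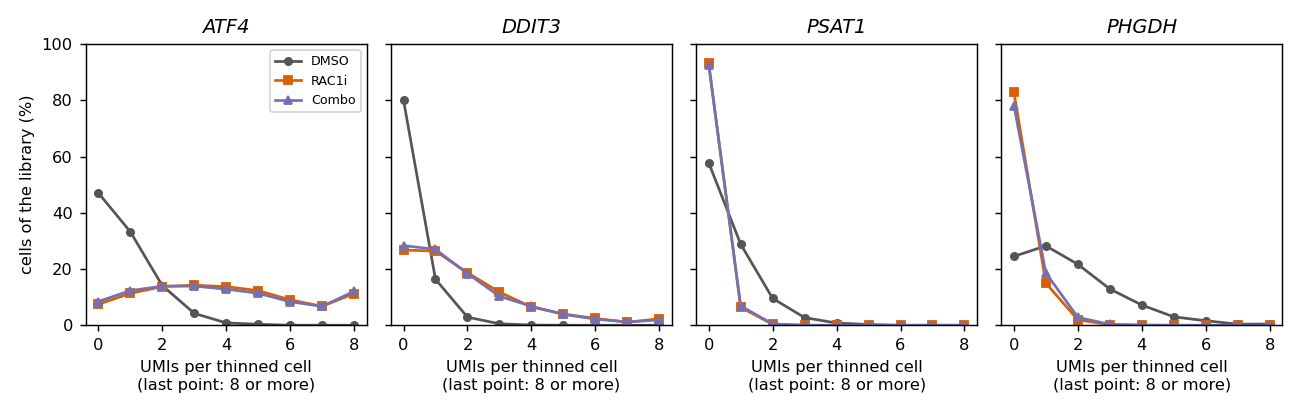
Percentage of cells of each library by number of UMIs per cell after thinning to 5000 UMIs, for ATF4, DDIT3, PSAT1 and PHGDH; the last point holds cells with 8 or more. Cells without ATF4 made up 47.1% in DMSO, 7.46% in RAC1i and 8.44% in Combo, while cells without PHGDH made up 24.5%, 82.85% and 78.1%.

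The spread over cells was measured by the Fano factor, the variance over the mean of thinned UMIs, which is 1 for pure counting and can rise with the mean. For DDIT3 it stood at 1.36 in DMSO but 2.49 in RAC1i and 2.44 in Combo, with up to 16, 27 and 33 UMIs in 1 cell. Its mean thinned UMIs per cell were 0.246, 1.92 and 1.83. The Fano factor of ATF4 was 1.12, 1.92 and 2.08, and that of DDIT4 1.31, 1.64 and 1.39 at means of only 0.201, 0.0885 and 0.119. PHGDH, at 1.43, 1.09 and 1.09, went the opposite way as its level was lower. The other 6 genes lay between 0.992 and 1.23 in every library.

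The number of the 10 genes detected per thinned cell had a median of 2 in each library, with means of 2.32, 2.16 and 2.23. The order of the means turned with depth: at 2500 UMIs per cell they were 1.41, 1.62 and 1.63, lowest in DMSO. The make-up differed at both ends. Cells with none of the 10 were 5.03% of DMSO, 2.35% of RAC1i and 2.42% of Combo cells. Cells with 5 or more were 4.55%, 0.728% and 0.993%, and the most found in 1 cell was 8, 6 and 7.

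Co-detection of pairs was set against the number of cells that their separate shares give. Among the 40 pairs in DMSO with at least 10 cells expected to hold both, 13 had an interval above 1 for observed over expected cells and 0 below. In RAC1i 3 of 32 pairs lay above 1 and 1 below, and in Combo 2 of 33 above and 0 below. These intervals were not adjusted for the number of pairs, and the counts depend on the thinning depth: at 2500 UMIs per cell 6, 4 and 4 pairs lay above 1 in DMSO, RAC1i and Combo. A Poisson interval is too wide for genes found in most cells, so pairs with ATF4 or DDIT3 were less easily counted in treated cells. The counts are therefore not comparable between libraries. Still counted were ATF4 with DDIT3 in RAC1i, at 1.025 (1.0001 to 1.05), and the DDIT3 pairs given below for RAC1i and Combo. How many pairs of other genes of like level lie above 1 was not measured, so the counts are no result about these 10 genes. The DMSO pairs furthest above 1 joined CHAC1, DDIT3 and TRIB3 with each other or with SESN2 and DDIT4. CHAC1 with DDIT4 gave 90 cells where 54.1 were expected, a ratio of 1.66 (1.34 to 2.05). TRIB3 with CHAC1 gave 1.57 (1.16 to 2.08), DDIT3 with SESN2 1.52 (1.25 to 1.83), DDIT3 with TRIB3 1.47 (1.27 to 1.71) and TRIB3 with DDIT4 1.41 (1.18 to 1.66).

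In the treated libraries most pairs were near 1 or rested on few cells. Among pairs with at least 10 expected cells, the furthest above 1 in RAC1i were SESN2 with VLDLR at 1.51 (1.11 to 2.01) and PSAT1 with PHGDH at 1.32 (1.11 to 1.56), while DDIT3 with PSAT1 lay below 1 at 0.896 (0.812 to 0.988). In Combo the same pairs gave 1.10 (0.736 to 1.58), 0.947 (0.780 to 1.14) and 0.947 (0.852 to 1.05), intervals that include 1. Above 1 in Combo were SESN2 with DDIT4 at 1.35 (1.03 to 1.74) and DDIT3 with DDIT4 at 1.13 (1.04 to 1.23). Under 10 expected cells, CHAC1 with DDIT4 gave 2.29 (0.922 to 4.72) in RAC1i and 2.38 (1.30 to 3.99) in Combo, the latter from 14 cells. CHAC1 with SESN2 gave 3.01 (1.11 to 6.56) in RAC1i from 6 cells, but 0.826 (0.170 to 2.41) in Combo. The other pairs named for DMSO had intervals that include 1 in both treated libraries. In RAC1i and Combo, DDIT3 with SESN2 gave 1.08 and 1.08, and DDIT3 with TRIB3 1.02 and 0.977. TRIB3 with DDIT4 gave 0.929 and 0.783. TRIB3 with CHAC1 gave 0 and 0.918, where 2.58 and 4.36 cells were expected. ATF4 and DDIT3, each found in most treated cells, have little room above 1, and their thinned UMIs had Pearson correlations of 0.056, 0.147 and 0.179 over the 6725, 9200 and 7354 cells. These are weak, and the 2 counts share each cell's fixed total.

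Cells were also ordered by their DDIT3 UMIs. In DMSO, TRIB3 was detected in 7.99% (7.28 to 8.75) of cells with no DDIT3 UMI, 12.5% (10.6 to 14.6) of cells with 1 and 16.5% (11.9 to 21.9) of cells with 2 or 3. In RAC1i the shares were 6.01%, 6.02% and 6.63%, and 6.51% (5.31 to 7.87) in the 1506 cells with 4 or more. In Combo they were 7.68%, 7.61%, 6.62% and 7.09%. Whether the libraries differ in this respect beyond counting error was not tested. PSAT1 had a lower share beside more DDIT3 in treated cells, from 8.69% with none to 4.98% with 4 or more in RAC1i and from 8.35% to 4.61% in Combo. In DMSO it went from 41.5% with none to 49.8% with 2 or 3. SESN2 had a higher share beside more DDIT3 in each library, from 4.70% with none to 11.7% with 2 or 3 in DMSO, and to 5.78% from 3.74% and 8.03% from 4.80% with 4 or more in RAC1i and Combo. DDIT4 too had a higher share beside more DDIT3 in all 3 libraries, from 14.9% to 25.5% in DMSO, from 5.93% with none to 11.9% with 4 or more in RAC1i, and from 6.57% to 17.2% in Combo. Both genes also had lower levels in deeper cells of the treated libraries: in RAC1i, from cells with 5000 to 10000 UMIs to cells with 30000 or more, DDIT3 went from 567 to 314 CPM and DDIT4 from 26.6 to 10.3 CPM. In Combo they went from 549 to 292 CPM and from 32.9 to 16.1 CPM. PSAT1 had a higher level in these deeper treated cells, going from 11.3 to 16.3 CPM in RAC1i and from 8.37 to 17.5 CPM in Combo. Over the same bins in DMSO, DDIT3 went from 53.6 to 47.7 CPM and PSAT1 from 141 to 122.5 CPM. The part of depth in the relations of DDIT4 and PSAT1 to DDIT3 was not tested.

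**Figure D4:**
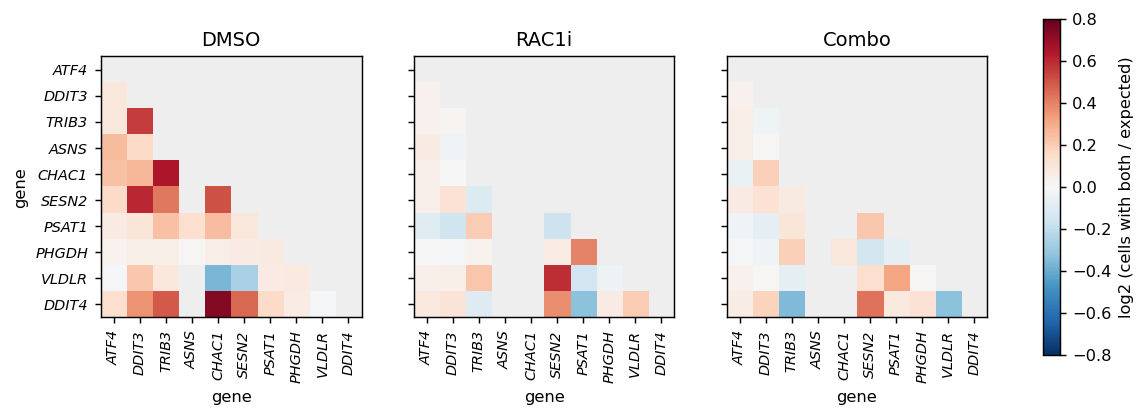
Log2 of the number of thinned cells holding both genes of a pair over the number expected from their separate shares, in each library. Grey pairs above the diagonal repeat those below it, and grey pairs below it had fewer than 10 cells expected. The darkest red cells in DMSO are CHAC1 with DDIT4 and TRIB3 with CHAC1, and in RAC1i SESN2 with VLDLR.

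DDIT3 and DDIT4 were also higher in treated cells rich in metallothionein mRNA, which encodes small metal-binding proteins. In the 932 RAC1i cells with at least 132 thinned UMIs of these genes, DDIT3 stood at 658 CPM against 354 in the other cells, a ratio of 1.86 (1.79 to 1.93). In the 740 Combo cells with at least 210 such UMIs, it stood at 607 against 339 CPM, a ratio of 1.79 (1.71 to 1.87). In DMSO, where the limit was 3 UMIs, the ratio was 1.11 (0.958 to 1.27). DDIT4 gave 2.54 (2.14 to 2.997) in RAC1i, 1.75 (1.45 to 2.09) in Combo and 1.14 (0.975 to 1.33) in DMSO. TRIB3 was lower in the same cells, at ratios of 0.569 (0.395 to 0.798) in RAC1i and 0.519 (0.349 to 0.745) in Combo. PSAT1 gave 0.725 (0.532 to 0.968) and 0.544 (0.371 to 0.774) there, and SESN2 0.837 (0.589 to 1.16) and 0.541 (0.353 to 0.798). TRIB3 also differed with depth in treated cells. In RAC1i it stood at 8.12 CPM in cells with 5000 to 10000 UMIs and 15.75 CPM in cells with 30000 or more. In Combo it stood at 7.47 and 17.1 CPM. DDIT3, DDIT4 and PSAT1 differed with depth as given above. The part of depth in the metallothionein ratios was not tested. Cells richest in chemokine UMIs also had more DDIT3 and DDIT4. The limits were unlike, at least 1 thinned chemokine UMI in DMSO, 8 in RAC1i and 5 in Combo. In that order DDIT3 gave ratios of 1.31 (1.15 to 1.49), 1.12 (1.07 to 1.17) and 1.28 (1.22 to 1.34), and DDIT4 1.20, 1.45 and 1.47. In the cells richest in mitochondrial UMIs DDIT3 gave 0.881 (0.739 to 1.04), 1.14 (1.08 to 1.19) and 1.35 (1.28 to 1.42).

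These ranges of cells are not types: 384 RAC1i and 299 Combo cells lay within 10% of the metallothionein limit, and the median thinned UMIs of mitosis genes were 4 inside and 4 outside in both libraries. In cells with the most DNA synthesis and histone UMIs, DDIT3 was lower in each library, at ratios of 0.685 (0.563 to 0.826) in DMSO, 0.753 (0.715 to 0.792) in RAC1i and 0.697 (0.656 to 0.740) in Combo.

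The rest of the pathway was followed in 9 lists. Each count below is to be read against all genes, of which 16.2% were at or past 2-fold higher and 29.4% lower in RAC1i over DMSO, with a median log2 ratio of -0.29. Among 16 genes of the eIF2 kinases, eIF2 and eIF2B with their regulators, 3 were at or past 2-fold higher and 1 lower in RAC1i over DMSO, and the median log2 ratio was 0.10, so the higher count is near the 16.2% of all genes. PPP1R15A, also called GADD34, which brings a phosphatase to eIF2 and ends the response, stood at 18.9 CPM in DMSO, 183 in RAC1i and 177 in Combo, log2 ratios of 3.27 and 3.23 against DMSO. EIF2AK2, the kinase PKR, was the lowest at -1.07 in RAC1i over DMSO. In Combo over RAC1i this list ran from PPP1R15B at -0.35 to DNAJC3 at 0.36.

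Among 7 factors that pair with or resemble ATF4, 1 was higher and 2 lower, shares near the 16.2% and 29.4% of all genes. ATF3, a stress-induced repressor, went from 5.37 CPM in DMSO to 120 in RAC1i and 119 in Combo, a log2 ratio of 4.48 in RAC1i over DMSO. NUPR1, a stress-induced chromatin protein, went from 20.2 to 1.70 and 1.37 CPM, log2 ratios of -3.57 and -3.88. JDP2, another leucine zipper protein, was the highest of the list in Combo over RAC1i at 0.14.

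All 7 other serine, glycine and one-carbon enzymes were at or past 2-fold lower in both treated libraries, where 29.4% and 27.9% of all genes were. The median log2 ratio was -1.48 in RAC1i over DMSO and -1.61 in Combo over DMSO. In RAC1i over DMSO they ran from ALDH1L2, a mitochondrial folate enzyme, at -1.35 to PSPH, the last step of serine synthesis, at -1.97. The 3 enzymes of serine synthesis, PHGDH, PSAT1 and PSPH, were thus all lower. In Combo over RAC1i this list was centred on 0.01, from MTHFD2 at -0.19 to SHMT1 at 0.23.

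Smaller shares of the other supply lists were past 2-fold. Of 8 further amino acid enzymes 4 were at or past 2-fold lower in RAC1i over DMSO and 0 higher, beside 29.4% and 16.2% of all genes, and the lowest was CBS, which starts transsulfuration, at -2.37. Of 9 measured amino acid transporters 5 were lower and 1 higher, beside the same 29.4% and 16.2%. SLC7A11, the cystine carrier that supplies glutathione synthesis, went from 26.0 CPM in DMSO to 0.992 in RAC1i and 0.700 in Combo. Its partner subunit SLC3A2, which also serves other carriers, went from 184 to 473 and 488 CPM. Of 12 aminoacyl-tRNA synthetases 3 were lower, no larger a share than the 29.4% of all genes, and 0 higher, from AARS1 at -2.75 to YARS1 at 0.03.

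In Combo over RAC1i these 3 lists held no gene past 2-fold, where 0.0596% of all genes were higher and 0.112% lower. They ran from BCAT1 at -0.59 to GOT1 at 0.34 among the enzymes, from SLC38A2 at -0.49 to SLC3A2 at 0.05 among the transporters, and from IARS1 at -0.25 to SARS1 at 0.25 among the synthetases.

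Among 13 measured secreted, death and translation targets, 2 were higher and 5 lower in RAC1i over DMSO, with a median of -0.88, beside 16.2% and 29.4% of all genes. TNFRSF10B, the death receptor DR5 that CHOP induces, went from 22.7 CPM to 55.1 in RAC1i and 44.4 in Combo, while ADM2, a secreted peptide, was lowest at -2.67. The ends of this list in Combo over RAC1i were XPOT at -0.49 and BBC3 at 0.19. Of 7 measured paralogs of the 10 genes, 2 were higher and 3 lower, beside the same 16.2% and 29.4%, from TRIB2 at 1.07 to LRP8, a lipoprotein receptor related to VLDLR, at -2.36. The lowest of them in Combo over RAC1i was TRIB1 at -0.73.

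The other arms of the unfolded protein response, driven by ATF6 and by IRE1 through XBP1, held 14 genes. At or past 2-fold 1 was higher and 4 were lower, the latter a share near the 29.4% of all genes, and the median was -0.55 beside -0.29 over all genes. DNAJB9, an endoplasmic reticulum co-chaperone, was highest at 1.89, and SDF2L1, of the same compartment, lowest at -2.62. HSPA5, the chaperone BiP by which endoplasmic reticulum stress is usually followed, went from 357 CPM in DMSO to 206 in RAC1i and 222 in Combo. HSPA5 was named after its values were seen. In Combo over RAC1i the list ran from DNAJB9 at -0.31 to SDF2L1 at 0.24.

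**Figure D5:**
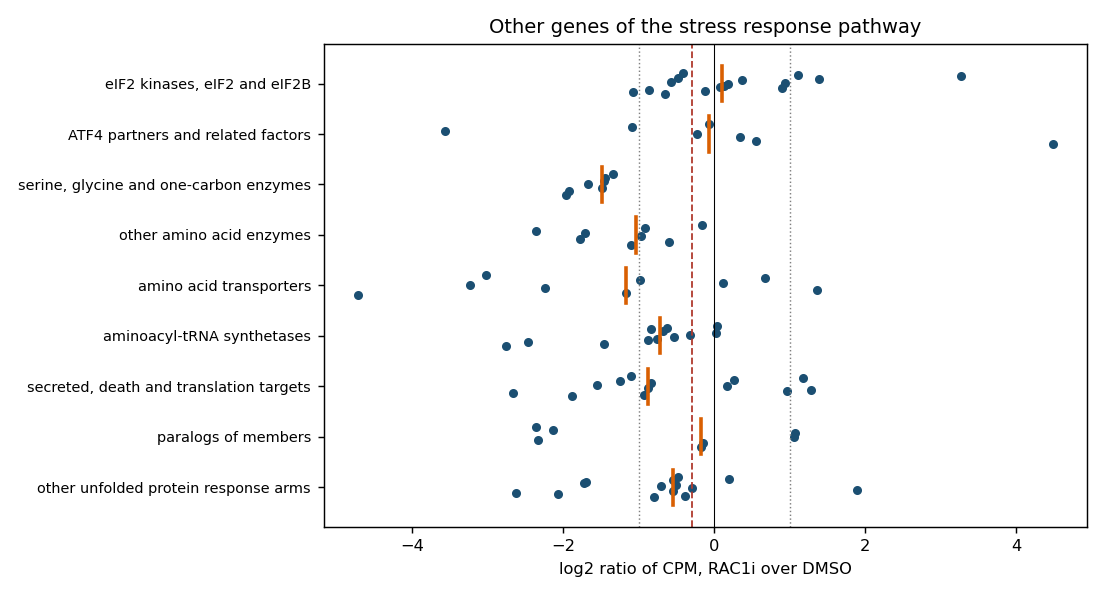
Log2 ratio of CPM in RAC1i over DMSO for the genes of 9 other lists that reached 1 CPM in either library. Each point is a gene, orange bars are list medians, the dashed line is the median of all genes and dotted lines mark 2-fold. The serine, glycine and one-carbon enzymes lie left of the 2-fold line, and single points for ATF3 and PPP1R15A lie furthest to the right.

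Genes that went along with the number of the 10 genes detected in a cell did so weakly. Among 4487 genes with at least 20 CPM in each library, the 10 with the highest value of their lowest Pearson correlation over the 3 libraries included MYL12A, GAS5, AMOTL2, MYL12B, CCN1, EIF1, EIF5A, RNF114 and EPHA2. The highest lowest value was 0.077 (MYL12A) and the 10th was 0.045 (EPHA2), in sparse counts where such values are no finding. The leading genes of single libraries, looked up after these values were seen, differed between vehicle and treated cells. The number detected is itself made up of different genes in each library. ATF4 was found in 52.9% of thinned DMSO, 92.5% of RAC1i and 91.6% of Combo cells, and PSAT1 in 42.2%, 6.77% and 7.36%. The part of this in the leading genes was not tested. The leading genes were EIF4EBP1 (0.164), SLC3A2 (0.154) and GARS (0.146) in DMSO, with correlations of -0.02 to 0.01 in both treated libraries. In RAC1i the first was SNHG15, a small nucleolar RNA host gene, at 0.197, and in Combo also SNHG15, at 0.217, with -0.00481 in DMSO.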

How the data were processed

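Droplet single-cell libraries of DMSO, RAC1i and Combo OVCAR3 cells (1 library per condition, 48 h) were analysed. The deposited files hold raw UMI counts per gene and barcode that the authors made with Cell Ranger 4.0.0 on GRCh38, per the labels. Cell Ranger by default keeps reads that fit 1 gene only. Doses are those of the study's methods.

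The study's limits on cells were used: over 1000 genes, complexity (log genes over log UMIs) over 0.8, and no more than 20% of UMIs from mitochondrial genes. No doublet caller was run here. One alternative leaves out the 10% of cells with most UMIs. UMIs were summed over kept cells and divided by the total (CPM). A gene was counted as higher or lower at 2-fold, if it reached 1 CPM in either library. Other totals moved the median log2 ratio of all genes against DMSO by up to 0.12 (DESeq2 size factors) and 0.09 (TMM). Shares, co-detection and Fano factors used cells thinned to 5000 UMIs at a fixed seed. Expected cells with both genes are the product of the 2 shares times the cells.

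Gene positions and overlaps came from GENCODE on GRCh38, in which 36366 of 36601 gene IDs matched (99.4%), and start sites from RefSeq. Python 3.11.15, scipy 1.17.1, R 4.3.3, edgeR 4.0.16 and DESeq2 1.42.0 were used, the last 2 for scaling only. The code of the ratio interval was tested on simulated Poisson counts. The other intervals were not tested.

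The 10 genes and all lists were chosen with earlier results of these data known. Named were all 10 genes, the extreme genes of each list in RAC1i over DMSO and Combo over RAC1i, and the 10 genes most correlated with the number detected; a few genes that this rule names are not reported here. Tried as alternatives were other cell limits, scalings, fold and CPM limits, depth windows and thinning depths. The windows of 1000 and 50 bases around start sites, the bins of DDIT3 UMIs and the window of 2% to 4% mitochondrial UMIs were chosen after seeing the data.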

Additional observations from a re-analysis of the deposited data

How the results depend on the processing

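The number of the 10 genes past 2-fold in RAC1i over DMSO ranged from 5 to 7 over the 12 alternatives, the lowest with a mean over cells of CPM, where ASNS and DDIT4 dropped out and 20.96% of all genes were higher and 25.48% lower. In Combo over DMSO it was 5 or 6, and 7 at the limit of 1.5-fold (2 higher and 5 lower, where 22.83% and 40.12% of all genes were), and in Combo over RAC1i it stayed at 0. No log2 ratio past 2-fold changed direction under the 9 alternatives of cells and scaling, although ASNS and DDIT4 did in single depth and mitochondrial bins. Under these alternatives, all 10 genes kept their direction in RAC1i over DMSO, 8 in Combo over DMSO (SESN2 and VLDLR did not) and 6 in Combo over RAC1i (ATF4, DDIT3, TRIB3 and PSAT1 did not). DDIT4 in RAC1i over DMSO ranged from -1.91 to -0.89. The restriction to cells with 2% to 4% mitochondrial UMIs, chosen after seeing the data, left ATF4 at 1.90 and DDIT3 at 2.68. Thinning depth set the number of the 10 genes detected per cell, from 1.41, 1.62 and 1.63 on average in DMSO, RAC1i and Combo at 2500 UMIs to 3.39, 2.77 and 2.91 at 10000, so DMSO was lowest at 2500 and highest at 5000 and 10000. Pairs with an interval above 1 numbered 6 in DMSO, 4 in RAC1i and 4 in Combo at 2500 UMIs, against 13, 3 and 2 at 5000. At 10000 they numbered 18 in DMSO, 2 in RAC1i and 3 in Combo. As stated above, the counts of pairs are not comparable between libraries. After thinning to 10000 UMIs, chosen after seeing the data, 2 of the 10 most correlated genes (MYL12A and EPHA2) were again among the first 10. No paired analysis was possible because each condition has 1 library. ASNS rests on the fewest UMIs, 167 to 323 per library.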
